A study of Mus musculus with 2 samples.

Results

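The genes described here encode the protein parts of the machinery at chromosome ends: the telomerase genes Tert and Dkc1 and the shelterin genes Terf1, Terf2, Terf2ip, Tinf2, Acd, Pot1a and Pot1b. These 9 genes were chosen by name, from 21318 protein-coding genes with a known strand on chromosomes with peaks. For each gene, ELF1 peaks were taken whose summit, the position of highest signal, lay inside the gene or within 20 kb of any of its start sites, and a promoter peak had its summit within 1 kb of a start. ELF1, a transcription factor of the ETS family, was mapped by chromatin immunoprecipitation and sequencing in CH12.LX, an immortalized B-cell lymphoma line from a female mouse of strain B10.H-2aH-4bp/Wts and of unknown age, and peak lists were analysed. The labels give 2 biological replicates of this line in 1 group, with no treatment and no second condition, so all values below describe where ELF1 was found and none compares conditions. Per the labels both replicates derive from the same donor, so the cell line stands for 1 animal.

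Telomeres are kept by a reverse transcriptase that carries its own RNA template and by shelterin, a complex that coats the repeats and hides chromosome ends from DNA repair. Tert is the catalytic subunit of telomerase, and Dkc1 encodes dyskerin, the pseudouridine synthase that stabilises the RNA of the enzyme. In shelterin, the Terf1 and Terf2 proteins bind double-stranded repeats, Terf2ip encodes RAP1, a partner of TERF2, and Tinf2 encodes TIN2, the bridge of the complex. Acd encodes TPP1, which brings telomerase to the end and holds the POT1 proteins on single-stranded repeats. Mice have the paralogs Pot1a and Pot1b, where humans have a single POT1 gene.

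The start regions that carried the strongest peaks are shown beside those of Tert and of Dkc1, the member with the weakest peak in the optimal list. The ETS word CGGAA lay close to the summit in the first 5. It was not found in the Dkc1 stretch, which ends before the optimal summit of that gene, 82 bp downstream of the start. The Dkc1 summit of replicate 2, 27 bp downstream, lay inside the stretch, and that of replicate 1, at 38 bp, did not. The contrast depends on the genes shown. Pot1a, with a stronger peak than Tert, and Acd are not shown, and hold CGGAA centred 186 and 48 bases before the start. ELF1 binds around a GGAA core. The sequences were taken from RefSeq promoters (GRCm38.p6, the assembly of the mm10 build). A promoter entry matched 8 of the 9 genes, and none was used for Terf1. Each stretch is written 5′ to 3′ on the strand of the gene, from 80 bases before the start site to the 30th base of the transcript. That of Terf2ip begins 35 bases before the start, since Kars starts head to head with it. Capitals mark CGGAA, or TTCCG where the word lies on the other strand.
Terf2: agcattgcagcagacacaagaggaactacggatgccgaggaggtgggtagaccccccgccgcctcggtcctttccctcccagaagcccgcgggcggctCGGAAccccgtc
Pot1b: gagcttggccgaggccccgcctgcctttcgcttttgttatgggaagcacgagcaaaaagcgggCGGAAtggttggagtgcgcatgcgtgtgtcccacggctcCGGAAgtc
Terf2ip: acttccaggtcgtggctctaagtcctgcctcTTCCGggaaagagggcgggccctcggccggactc
Tinf2: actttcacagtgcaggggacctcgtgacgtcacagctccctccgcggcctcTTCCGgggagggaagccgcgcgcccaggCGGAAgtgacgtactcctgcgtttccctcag
Tert: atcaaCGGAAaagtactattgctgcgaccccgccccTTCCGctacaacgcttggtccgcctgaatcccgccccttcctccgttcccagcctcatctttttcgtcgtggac
Dkc1: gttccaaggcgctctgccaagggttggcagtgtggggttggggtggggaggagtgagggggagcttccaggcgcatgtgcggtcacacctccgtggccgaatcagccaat
In mm10 coordinates these stretches are chr8:107096516-107096625 (minus strand), chr17:55712595-55712704 (minus), chr8:112011324-112011388 (plus), chr14:55681788-55681897 (minus), chr13:73626831-73626940 (plus) and chrX:75095774-75095883 (plus), in the same order.

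The peak lists set the frame for these genes. The optimal list, called on both replicates and thresholded by the irreproducible discovery rate, held 29086 peaks and the conservative list 27399. The relaxed lists of each replicate and of both pooled held 300000 entries each, peaks and background alike, and an older list on the mm9 build held 18804 peaks. Column 7 gave a signal per peak as the authors' caller set it. Its scale is not given and differs between lists, so a rank within the list stands beside it, and read depth is unknown. As a check of the cell type, the 6 B cell marker genes reported (Cd79a, Cd79b, Ms4a1, Blk, Pax5 and Ebf1) had a promoter peak. Of 5 T cell marker genes Lck alone had one, and 0 of 5 myeloid and 0 of 3 erythroid marker genes had one. Over all protein-coding genes 42.7% had one in the optimal list. Peaks do not measure expression.

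ELF1 lay at the promoters of most genes of telomerase and shelterin. In the optimal list 7 of 9 had a promoter peak, namely Tert, Dkc1, Terf2, Terf2ip, Tinf2, Pot1a and Pot1b, where 42.7% of all protein-coding genes had one. In the conservative list all 9 did (42% of all genes), and so did all 9 in the mm9 list with every GENCODE M1 transcript start (36.8% of all genes). With the window at 500 bp (40.4% of all genes) or 2 kb (44.8%) the count was again 7 of 9, and in the stronger 50% of optimal peaks (34.5%) it was 6 of 9, without Dkc1. The genes without a promoter peak in the optimal list were Terf1 and Acd. The 9 genes were chosen by name, with earlier results of these data known. With 1 group and no read counts besides, these counts carry no test.

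The shelterin genes for double-stranded repeat binding and its partner had strong peaks, except Terf1. Terf2 had the strongest promoter peak of the 9 genes, with a signal of 269 in the optimal list, 123 in replicate 1 (rank 1397) and 146 in replicate 2 (rank 1526). This peak spanned chr8:107096398-107096689, and its summit lay 4 bp downstream of a Terf2 start. Another, weaker peak lay 674 bp downstream, within 1 kb as well, with a signal of 35.9 (16.6 in replicate 1 and 18.0 in replicate 2), and its mm9 counterpart fell in an intron of Terf2. Terf2ip had a signal of 196 in the optimal list, 94.7 in replicate 1 (rank 2147) and 99.4 in replicate 2 (rank 2864). Its peak, at chr8:112011277-112011439, had its summit 1 bp from the Terf2ip start and 6 bp from the start of Kars, the lysyl-tRNA synthetase gene on the opposite strand. A peak list cannot assign this site to either gene of the pair. Both replicates ranked the Terf2 and Terf2ip sites among their strongest entries.

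The genes for the bridge and for single-stranded binding followed the order Pot1b, Tinf2, Pot1a in both replicates. Pot1b had signals of 225 in the optimal list, 97.2 in replicate 1 (rank 2059) and 129 in replicate 2 (rank 1915). Its peak lay at chr17:55712495-55712743, with the summit 14 bp downstream of a start. Tinf2 had signals of 193, 83.6 (rank 2580) and 107 (rank 2588) in the same order, from a peak at chr14:55681747-55681947 whose summit was 28 bp upstream of a start. The Tinf2 signal was below that of Terf2ip in replicate 1 and above it in replicate 2, so these neighbours in the order were not separated. Pot1a was lower than Pot1b in both replicates, with 112 in the optimal list, 42.6 in replicate 1 (rank 5729) and 71.5 in replicate 2 (rank 4420). Its summit lay 88 bp upstream of a start, in the peak chr6:25809183-25809546. The paralogs thus both carried a promoter peak, of unequal signal.

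The telomerase genes ranked lower than these shelterin genes. Tert had a signal of 68.7 in the optimal list, 22.4 in replicate 1 (rank 11075) and 44.9 in replicate 2 (rank 7420). The Tert peak, chr13:73626629-73626992, had its summit 100 bp upstream of the start, and the mm9 summit fell in no annotated transcript. Dkc1 had the lowest signal of the 9 genes in both replicates. Its values were 26.8 in the optimal list, 8.97 in replicate 1 (rank 33135) and 14.8 in replicate 2 (rank 25185), from a peak at chrX:75095754-75096117 with the summit 82 bp downstream of the start. In replicate 1 this entry fell below the 29086 strongest, the length of the optimal list.

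**Figure D1:**
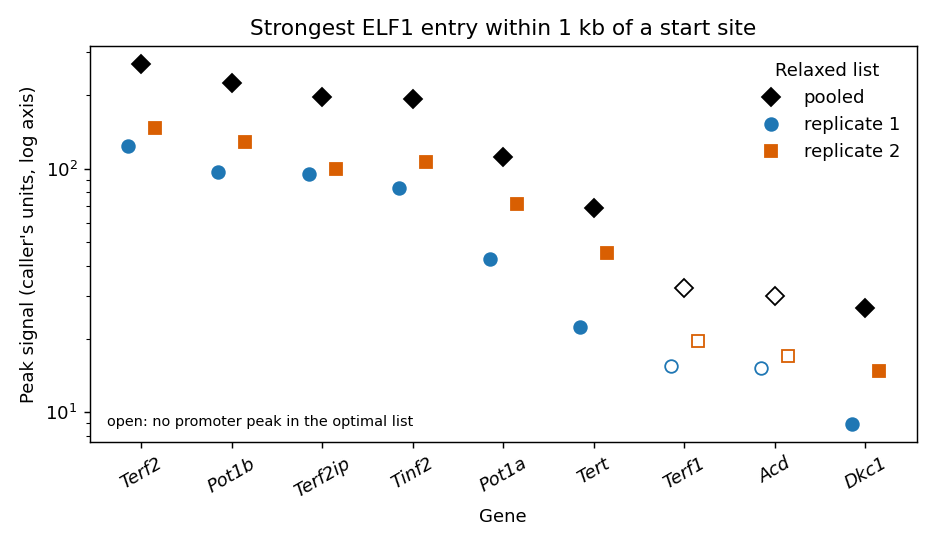
Signal of the strongest entry within 1 kb of a start (vertical log axis, in the caller's units) for each gene in the pooled list (black diamonds), replicate 1 (blue circles) and replicate 2 (orange squares), ordered by the pooled signal; scales differ between lists. Terf2 is highest at 269 in the pooled list and Dkc1 lowest at 26.8, and open symbols mark Terf1 and Acd, which had no promoter peak in the optimal list.

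Terf1 and Acd had promoter entries that the optimal list did not keep. For Terf1 the strongest entry within 1 kb had signals of 32.5 in the pooled list (rank 18143), 15.4 in replicate 1 (rank 16615) and 19.7 in replicate 2 (rank 18171). The 3 summits lay 493 to 495 bp downstream of the start, within 2 bp of each other, and the conservative list held this peak at chr1:15805858-15806221. A weaker entry lay nearer, 24 bp downstream, with a pooled signal of 22.0. The Terf1 peak stood above that of Dkc1 in the pooled list and in both replicates, yet Dkc1 was in the optimal list and Terf1 was not. In the mm9 list the order was the opposite, with Terf1 at rank 18710 of 18804 and Dkc1 at 18118, both close to the end of that list. The mm9 summit of Terf1 lay in an intron of the gene.

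At Acd the entries spread over more than 1 site. The pooled list had an entry 43 bp downstream of the start with a signal of 29.9 (rank 19833) and another 169 bp upstream with 27.4 (rank 21797). In replicate 1 the stronger entry was the upstream one, at 210 bp, with a signal of 15.2 against 12.7 at 38 bp downstream. In replicate 2 the order was the opposite, with 17.0 at 23 bp downstream and 8.52 at 183 bp upstream. The conservative list held the downstream peak, chr8:105701003-105701366, which was also within 1 kb of the start of Pard6a, 37 bp away. Of the 1001 pooled entries nearest in rank to the Acd entry, 82.0% were in the optimal list and 74.4% in the conservative one, and around the Terf1 entry the shares were 85.2% and 81.2%. Absence from the optimal list at these ranks was thus the less common outcome.

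Against all bound genes the bound members spread from weak to fairly strong signals, below the strongest ones. The median strongest promoter peak of the 9100 bound protein-coding genes was 97.6 in the optimal list, and that of the 7 bound members was 193. Terf2 was above 84.2% of bound genes, Pot1b above 79.1%, Terf2ip above 74.5%, Tinf2 above 74.0% and Pot1a above 55.0%. Tert was above 37.7% and Dkc1 above 7.93%. In the conservative list, which held a promoter peak at all 9, the median of the members was 112 against 99.9 for all bound genes. The higher median of the optimal list was therefore that of the bound members alone, with the weak sites of Terf1 and Acd left out.

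**Figure D2:**
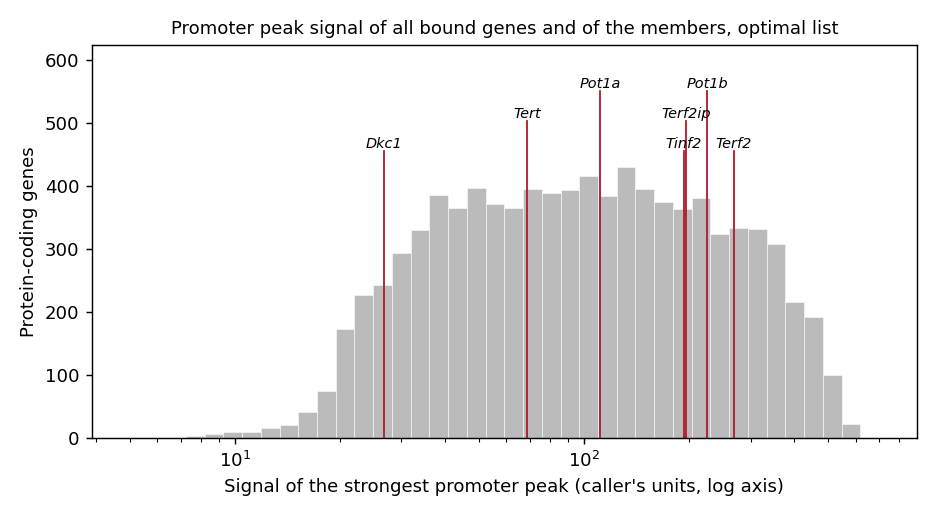
Number of protein-coding genes (vertical axis) by the signal of their strongest promoter peak in the optimal list (horizontal log axis, in the caller's units), with red lines at the 7 bound members. Dkc1 stands at 26.8 and Tert at 68.7, below the median of 97.6, and the 5 shelterin genes stand between 112 and 269.

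In the optimal list the members' peaks sat close to the start sites. The strongest promoter summit lay within 100 bp of a start in 7 of the 7 bound members, where 59.9% of all bound genes had it that close. The median distance was 28 bp for the members and 69.5 bp for all bound genes. It lay that close for 8 of 9 members in the conservative list, all but Terf1 (60.2% of all bound genes), and for 8 of 9 in the strongest entries of replicate 2 (60.2%). In the mm9 list with its own set of starts it did for 6 of 9 (63.0% of all bound genes), and in the strongest entries of replicate 1 for 5 of 8 (57.5%), which is near the share of all bound genes in both. In the mm9 annotation the summits of Terf2, Terf2ip, Pot1b and Dkc1 fell in exonic untranslated sequence of the gene itself, those of Tert, Tinf2, Acd and Pot1a fell outside any transcript, and that of Terf1 fell in an intron.

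Outside the promoters, peaks lay near 3 of these genes in the optimal list. The search inside each gene or within 20 kb of a start gave 15 optimal peaks over 8 genes, where 63.5% of all protein-coding genes had at least 1. The only member with none was Terf1. The count was 8 of 9 within 10 kb (58.1% of all genes) and within 50 kb (72.7%), and 7 of 9 in the stronger 50% of optimal peaks (52.4%). All 9 members had such a peak in the conservative list (62.5%), in the mm9 list (56.6%) and in the strongest entries of replicate 2 (64.3%), and 8 in those of replicate 1 (63.9%). Of the 15 peaks, 8 were promoter peaks, 7 lay outside the promoter and 0 lay inside the body of a member beyond its promoter. The 7 belonged to Terf2ip, Tinf2 and Acd, and 5 of them lay within 1 kb of another gene's start. Over all protein-coding genes 31.3% of the 25412 pairs of a gene and a peak outside its promoter had such a peak, and no test was made on the 7. The conservative list held 6 peaks outside the promoter, over 3 members, and the mm9 list 5 over 2 members, without Tinf2. The members had a median of 1 optimal peak per gene, as all protein-coding genes did.

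The neighbours' peaks were as strong as some of the members' own. A peak 19.1 kb upstream of Terf2ip, with a signal of 102, lay 19 bp from the start of Adat1, a tRNA adenosine deaminase gene. Downstream of Tinf2 a peak of 127 lay 84 bp from the start of Gmpr2 and 439 bp from that of Nedd8, the ubiquitin-like protein gene. A weaker one of 19.1 lay 801 bp from Gmpr2. The mm9 list held neither, and the weaker one was missing from the conservative list and ranked 50957 in replicate 1. Next to Acd a peak of 95.7 lay 186 bp from the start of Carmil2. Another next to Acd, with a signal of 89.4, lay 13 bp from the start of Enkd1 and 55 bp from that of 4933405L10Rik. The peaks of Terf2ip with no other start within 1 kb were 18.3 kb downstream (34.2) and 1.65 kb upstream (28.1), and the mm9 counterpart of the latter fell in an intron of Kars.

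**Figure D3:**
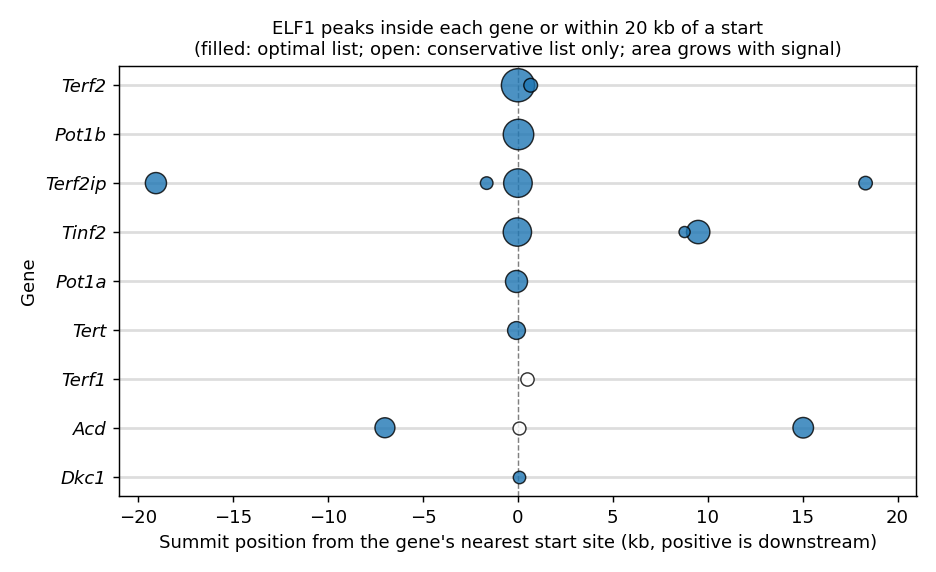
Summits of ELF1 peaks by distance from the nearest start of each gene (horizontal axis, kb, positive in the direction of transcription), for peaks inside the gene or within 20 kb of a start; the area of a circle grows with its signal. Filled circles are optimal peaks and open circles peaks of the conservative list alone, which are the promoter peaks of Terf1 and Acd; Terf2ip, Tinf2 and Acd are the only genes with circles more than 1 kb from 0.

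The optimal list was itself thresholded on reproducibility between these replicates, so their agreement on its peaks is partly built in. All 15 optimal peaks had an entry with a summit within 100 bp in both relaxed lists, where 85.4% of all optimal peaks did. Among the 29086 strongest entries of each replicate, 12 of the 15 had one in both, against 62.9% of all optimal peaks. The relaxed lists also hold background, and 62% of protein-coding genes had any promoter entry in replicate 1 and 61.7% in replicate 2. The stricter comparison is therefore the one with the strongest entries. By that measure replicate 1 alone had a promoter entry at 8 of 9 members (43.1% of all genes), all but Dkc1, and replicate 2 alone at 9 of 9 (43.6%).

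The ETS word CGGAA lay near the summits of most members, as it did in most mm9 promoter peaks, and these counts carry no test. On the mm9 list, whose build has a genome here, the word CCGGAAG lay within 50 bp of the summit, on either strand, in 3 of the 9 promoter peaks: Terf2ip, Tinf2 and Pot1b. The shares were 18.8% of all mm9 peaks and 26.8% of mm9 promoter peaks. The shorter CGGAA, which every CCGGAAG contains, was present in 6 of 9, adding Tert, Terf2 and Pot1a, against 58.6% of promoter peaks. The core GGAA, contained in both, was present in 9 of 9 and in 90.6% of promoter peaks. The peaks without CGGAA within 50 bp were those of Dkc1, Terf1 and Acd, the members with the lowest signals in that list. Within 100 bp the count of CGGAA was 7 of 9 (66.8% of promoter peaks), with Terf1 added, and that of CCGGAAG 4 of 9 (2636 of 8790 promoter peaks), with Terf2 added. A match describes letters and does not show that the factor bound them.

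In the RefSeq promoters, which run from 250 bases before to 50 after the start, the words lay close to the optimal summits of some members. The centre of CCGGAAG was 1 bp from the optimal summit at Tinf2, 3 bp at Terf2ip and 10 bp at Pot1b, the words visible around TTCCG or CGGAA in the sequences above. The nearest CGGAA was 16 bp from the summit at Terf2, 27 bp at Tert and 39 bp at Pot1a, where it lies farther upstream than the stretch shown for the other genes. At Acd, with no optimal summit, CGGAA was centred 48 bases before the start, and the conservative summit lay 43 bp after the start. Such distances were not computed over all promoters. Of the 8 members with an entry, 7 held CGGAA and 3 held CCGGAAG. Over all 17274 protein-coding promoters in the table the shares were 37.2% and 12.6%, over those with an optimal promoter peak 60.5% and 24.8%, and over those without one 19.1% and 3.05%. The exception was Dkc1, with 0 CGGAA in its 300 bases, but its optimal summit lay downstream of that window. Its summits in replicate 1, 38 bp downstream of the start, and in replicate 2, 27 bp downstream, lay inside it. The promoter of Dkc1 held 9 CpG dinucleotides and that of Acd 7, where promoters with an optimal peak had a median of 22 and those without one 5. Tinf2 had the most CpG, 24, followed by Pot1a with 22, Terf2 with 18, Terf2ip with 16, and Tert and Pot1b with 15 each.

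Genes that work with telomerase and shelterin were also bound at most promoters. Of 40 other telomere genes listed by name, 35 (87.5%) had an optimal promoter peak, where 42.7% of all protein-coding genes did, and their median signal was 121. In the conservative list 36 of 40 had one, against 42% of all genes. The list was chosen with earlier results of these data known, so these counts carry no test. Genes grouped here with the telomerase particle and its assembly, Pinx1, Tep1 and Parn included, were bound in 11 of 11 cases. The highest was Parn, the deadenylase that trims the telomerase RNA, with a signal of 448 in the optimal list (210 in replicate 1, 238 in replicate 2), and the lowest was Ruvbl2 with 71.4. Nhp2, a protein of the particle beside dyskerin, had a signal of 355 (175 and 178). In the optimal list and in replicate 1 the 11 signals were above those of Tert and Dkc1, but in replicate 2 Ruvbl2 was below Tert, with 41.9 against 44.9 (35.1 against 22.4 in replicate 1). The locus of Terc, the telomerase RNA itself, had a peak of 203 (77.4 and 124) within 1 kb of its ends, its strand being unknown here.

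The CST complex, which fills in the lagging strand at telomeres, was bound at 3 of 3 genes, with signals of 166 at Stn1, 105 at Ten1 and 64.7 at Ctc1. Genes of telomere maintenance and end processing were bound in 16 of 20 cases. The strongest were Daxx, a chaperone of histone H3.3 (386, with 170 in replicate 1 and 220 in replicate 2), and Tnks, a poly-ADP-ribosylase (363, with 168 and 195). The unbound ones were Atrx, the chromatin remodeller that works with DAXX, Zbtb48, and the meiotic telomere adaptor genes Terb1 and Terb2. Zbtb48 had a promoter peak of 38.3 in the conservative list, and the other 3 had none there. Of 5 genes tied to alternative lengthening or telomeric RNA, 4 were bound and Nr2f2 was not. Of the 35 bound genes, 12 had a peak that also lay within 1 kb of another gene's start, a share not computed over all bound genes. An entry within 100 bp in both replicates was found for 34, Smg6 being the exception, where 85.4% of all optimal peaks had one.

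**Figure D4:**
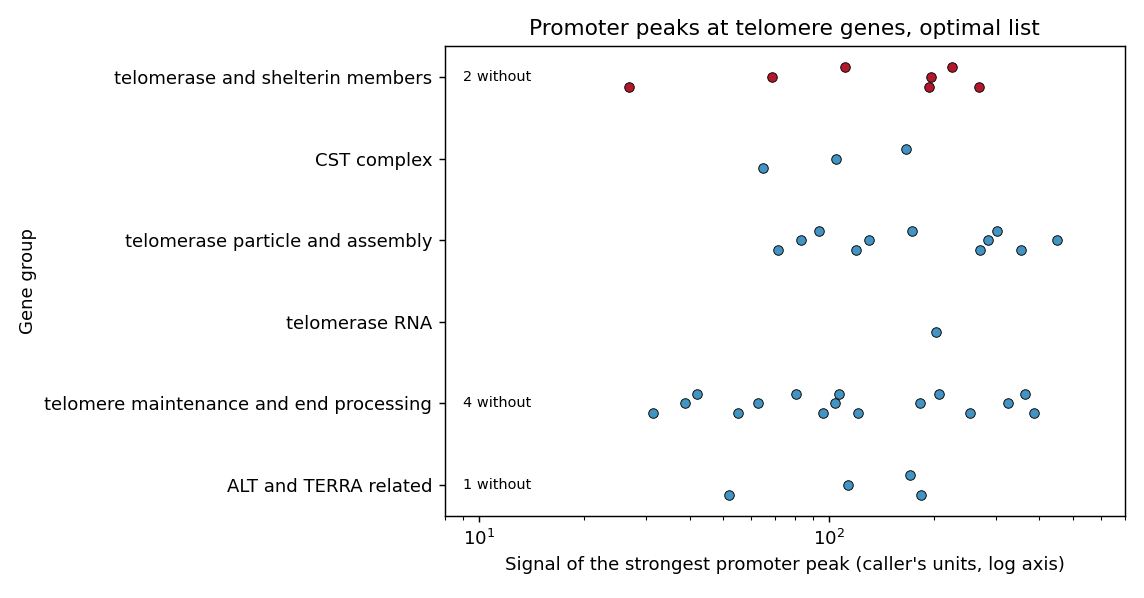
Signal of the strongest optimal promoter peak (horizontal log axis, in the caller's units) for the telomerase and shelterin members (red) and 5 groups of other telomere genes (blue), 1 point per bound gene and the number without a promoter peak written at the left. The 11 genes grouped with the telomerase particle and its assembly lie between 71.4 and 448, and Tert lies at 68.7 and Dkc1 at 26.8. The order of Ruvbl2, at 71.4, and Tert was the opposite in replicate 2.

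Over the 2 replicates, the bound genes with log2 signals nearest to those of Terf2 were Med4, Asb6 and Nabp2, and those nearest to Dkc1 were AU022252, P3h1 and Actr3b, among 8525 bound genes with an entry in both replicates. Med4 had signals of 123 and 146, as Terf2 did. AU022252 and P3h1 had the same values, 9.04 and 14.9, against 8.97 and 14.8 for Dkc1. Values this equal may come from 1 peak shared by both genes, which was not checked. With 2 replicates this likeness is a closeness of level and says nothing of a shared pattern.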

How the data were processed

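ELF1 ChIP-seq peaks were analysed for 2 biological replicates. Per the deposited README text, the authors derived each replicate's relaxed list from its mm10 alignments and a control, a pooled one from both replicates, the optimal and conservative lists from these by the irreproducible discovery rate, and the mm9 list from both replicates' mm9 alignments, with aligner and caller not given in the sources used here. Deposited column 7 is a signal, columns 5 and 9 of the mm10 lists were taken as scores, and column 9 of the deposited mm9 list as the −log10 of a q-value; only column 7 and the summit offset were used. The optimal, conservative and mm9 lists pool both replicates, so replicates were compared through their own relaxed lists.

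Starts for mm10 were those of RefSeq promoters (GRCm38.p6) and the outer 5′ end of each RefSeq gene. Strand came from that table for 17492 protein-coding genes and from GENCODE M1 for 4044, and 364 had none. The GENCODE match was tried by Ensembl identifier first and then by symbol or synonym, within 1 chromosome. The mm9 list was read with GENCODE M1 starts and NCBIM37 sequence. Positions count from 1, and each build was kept apart. No test between samples was possible with 1 group and no counts, and none was run over the members. The members and gene lists were chosen with earlier results of these data known. The text names all members, the 4 strongest and every unbound gene of the other telomere genes, genes starting at a member's promoter peak, and the 3 bound genes nearest in log2 signal to the strongest and weakest member. Other genes named, such as neighbours at distal peaks, Ruvbl2, Terc, Smg6 and the genes of the CST complex, were chosen after their values were seen. A further listed B cell marker is not reported here. Assignment and word search were tested on simulated data. Python 3.11.15, numpy 2.4.6, pandas 2.3.3 and matplotlib 3.10.9 were used.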

Additional observations from a re-analysis of the deposited data

How the results depend on the processing

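Promoter peaks were counted at 7 members in the optimal list. The count was 9 in the conservative and mm9 lists, 6 in the stronger 50% of optimal peaks, and 7 within 500 bp or 2 kb of a start. When either replicate was left out, the 29086 strongest relaxed entries of the other were counted, with no reproducibility threshold, and it was 8 to 9. With only the outer 5′ end of each gene, an alternative chosen after seeing the data, it was 7. Terf1 and Acd gained a promoter peak in the conservative and mm9 lists, and had an entry among the strongest of either replicate alone. Dkc1 lost its own in the stronger 50%. Without replicate 2 its entry, at rank 33135 in replicate 1, fell below the cut of 29086. The count of members with any peak near or inside the gene was 8, and 7 to 9 over its alternatives. Of the other telomere genes 35 of 40 were bound, 33 to 36 over the mm10 lists and windows, 32 of 39 in the mm9 list and 36 to 37 with either replicate left out. Member peaks with the word CCGGAAG within 50 bp numbered 3, with CGGAA 6 and with GGAA 9, since the words are nested. Of the 15 optimal peaks near members, 11 had entries within 50 bp in both replicates and 15 within 200 bp. No paired analysis was possible because both replicates belong to the only group. Read depth is unknown, so how well weak sites such as those of Dkc1, Terf1 and Acd were sampled cannot be given.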
